A study of Mus musculus with 4 samples.

Results

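Collagen genes were taken as the gene symbols made of Col, a number, the letter a and a number, with 10 or more counts in at least 2 libraries. The deposited tables held 44 such symbols among 32531 gene names, and 34 met the count rule. The libraries came from cortex of adult mice of the Cbln1-TRAP line NIDA030, in which Cbln1 regulatory sequence drives the ribosomal protein Rpl10a fused to EGFP. The IP group (2 libraries, numbered 2 and 4) held ribosome-bound RNA captured with an antibody against EGFP. The input group (2 libraries, also numbered 2 and 4) held total RNA of cortex, and both groups carry the transgene. Nothing in the labels ties the libraries of a group to separate animals, and the p-values here therefore cover the spread among 4 libraries, which may be technical.

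Collagens are extracellular proteins whose glycine-rich chains wind around each other in a helix. Fibrillar collagens form the fibres of connective tissue, which in brain lie in the meninges and around larger vessels. Type IV collagens form the sheet of the basement membrane that surrounds brain vessels, and transmembrane collagens are anchored in the cell membrane, some of them on neurons. Fibril-associated collagens and beaded-filament collagens link fibres to other matrix proteins.

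Gene counts per library ranged from 39750468 to 47567384, and 16600 genes were tested. The lane was 1 for the IP libraries and 2 for the input libraries, and its effect cannot be told apart from that of the capture. Reads that fell on several overlapping genes made up 1.54% of records in each IP library, against 5.07% and 5.09% in input. Cbln1, the gene whose regulatory sequence drives the tag, averaged 84.0 ± 21.7 CPM in IP and 10.2 ± 2.39 CPM in input (CPM, read counts per library size scaled by TMM; SD, n = 2 each). Its log2 fold change was 3.03 (SE 0.17, adjusted p = 1.39e-10 by Benjamini-Hochberg in edgeR). Glutamatergic neuron markers, among them Slc17a7, summed to 6878 and 7114 CPM in IP, against 5013 and 5290 CPM in input.

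Most collagen genes that moved were lower in IP. Of 33 members tested, 10 fell in IP, 1 rose and 22 did not pass the threshold (edgeR, adjusted p under 0.05). Those shares were 30.3% lower and 3.03% higher. Of the tested members, Col24a1 and Col9a1 had met the count rule only through input and none only through IP, so a fall was built into their entry. Without both, 9 of 31 fell and 1 rose. Among all 16600 genes tested, 22.4% were lower and 23.4% higher (3719 and 3886 genes; 5902 and 2153 with library sizes alone, where 13 collagens were lower and 0 higher). Over the 10046 genes in the same range of mean abundance (0.220 to 23.7 CPM), 23.1% were lower and 12.5% higher. The median log2 fold change was -0.44 over the collagens, -0.19 over genes in that range and -0.04 over all genes. These medians and shares were not tested against each other. Between captured ribosome-bound RNA and total RNA, the cells that make an RNA and its share on ribosomes cannot be told apart.

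**Figure D1:**
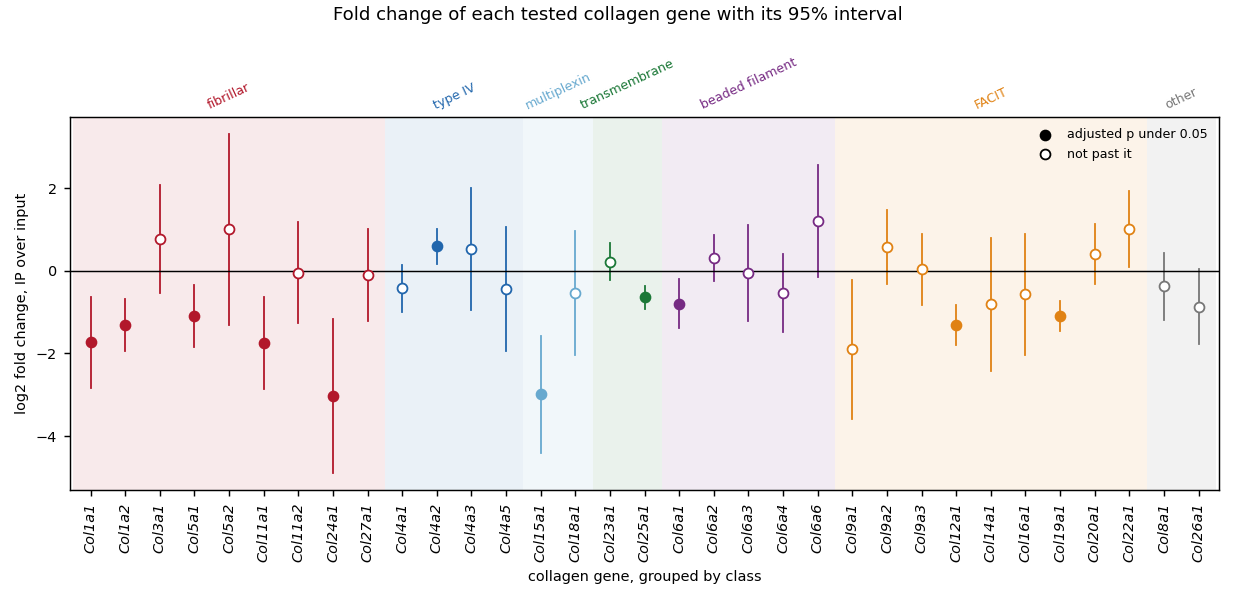
Log2 fold change (IP over input) of each of the 33 collagen genes tested, grouped by class, with bars for a 95% interval derived from the edgeR fit. Filled points passed an adjusted p of 0.05, and Col4a2 is the only filled point above 0, where 10 lie below it.

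Both IP libraries lay below both input libraries in 15 of the 33 members and above them in 8, where 37.8% and 35.3% of all genes tested did so, and 10 overlapped. The lengths of the collagen transcripts differ from those of most genes. The median exon length of the members was 7.62 kb, against 4.41 kb over the genes tested that have an annotation. The median GC content of the longest transcript was 55.1% for the members and 49.7% for those genes. With offsets for length and GC content fitted to each library, a setting added after seeing the data, 11 collagens were lower and 0 higher.

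Levels of different collagens were compared per kilobase of exon. In IP the mean levels were 1.43 CPM per kb for Col25a1, 1.40 for Col4a2, 1.11 for Col23a1 and 1.07 for Col19a1. In input they were 2.31 CPM per kb for Col19a1, 2.23 for Col25a1, 0.967 for Col6a1, 0.952 for Col23a1 and 0.933 for Col4a2. The first neighbours in this order overlapped: Col25a1 spanned 1.41 to 1.45 CPM per kb over the IP libraries and Col4a2 spanned 1.39 to 1.42. Col23a1 (1.04 to 1.18) and Col19a1 (1.02 to 1.13) overlapped each other and lay below both. In input Col19a1 spanned 2.16 to 2.46 CPM per kb and Col25a1 spanned 2.18 to 2.28. The input levels of Col6a1, Col23a1 and Col4a2 overlapped too. The lowest member in IP, Col4a4, was at 0.00248 CPM per kb there and 0.0289 in input.

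**Figure D2:**
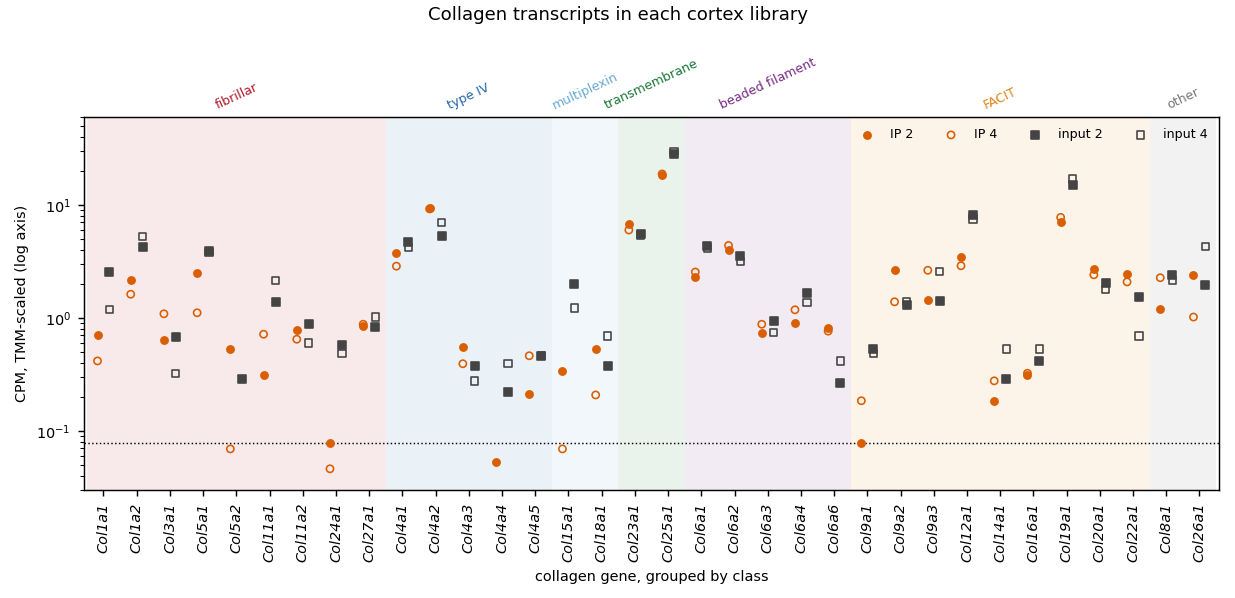
Abundance of each of the 34 collagen genes in each library (CPM, log axis), with IP left of input and libraries 2 and 4 filled and open. The dotted line marks 0.0789 CPM, the highest floor of 3 counts in any library; Col4a4 in IP 4 and Col5a2 in input 4 had 0 counts and are not drawn.

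Among the fibrillar collagens, 5 of 9 members (55.6%) fell in IP and none rose, where 22.4% of all genes tested fell and 23.4% rose. Without Col24a1, which met the count rule only through input, 4 of 8 fell. Col1a2, a chain of type I collagen, had 2.18 and 1.62 CPM in IP libraries 2 and 4, against 4.22 and 5.22 CPM in input libraries 2 and 4. Its partner chain Col1a1 had 0.710 and 0.416 CPM in IP, against 2.55 and 1.18 CPM in input. Both IP libraries were below both input libraries for each chain, by 2.49-fold for Col1a2 (log2 fold change -1.31, SE 0.30, edgeR adjusted p = 0.00144) and 3.32-fold for Col1a1 (-1.73, SE 0.53, adjusted p = 0.0115). The Col1a1 value leaned on input 2: without it the log2 fold change was -1.06 and the call was lost (adjusted p = 0.356).

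Col5a1, a chain of the type V collagen that nucleates fibrils, had 2.50 and 1.11 CPM in IP, against 3.87 and 3.77 CPM in input. The groups did not overlap, and the log2 fold change was -1.09 (SE 0.36, edgeR adjusted p = 0.0185). The IP libraries differed for this gene, so the value was -1.76 without IP 2 and -0.60 without IP 4, where the call was lost (adjusted p = 0.163). Col11a1, a type XI chain known from cartilage, had 0.316 and 0.717 CPM in IP, against 1.39 and 2.13 CPM in input. It was 3.36-fold lower (log2 fold change -1.75, SE 0.53, edgeR adjusted p = 0.0116). Leaving out IP 2 or input 4 ended the call (adjusted p = 0.0596 and 0.180), and the value was -2.45 without IP 4.

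Col24a1, a fibrillar collagen first described in developing bone and cornea, was nearly absent from IP. It had 3 and 2 counts in IP, against 26 and 21 counts in input, so all of its counts above the rule came from input. A fall was therefore built into its entry, and the values below give its size and are no support for a fall. The ratio of summed counts at equal depth was 0.116, with an exact counting interval of 0.0361 to 0.291 that covers counting error only. The fit gave an adjusted p of 0.00885, which was lost when IP 4, input 2 or input 4 was left out (adjusted p = 0.0817, 0.153 and 0.108).

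The other fibrillar members did not pass the threshold. Col3a1, the type III chain of vessel walls and meninges, had 0.631 and 1.09 CPM in IP, against 0.682 and 0.323 CPM in input, and the groups overlapped. Its log2 fold change of 0.77 had a 95% interval from -0.54 to 2.09. Col27a1 had 0.842 and 0.879 CPM in IP and 0.836 and 1.02 CPM in input, and Col11a2 had 0.789 and 0.648 CPM in IP and 0.880 and 0.601 CPM in input. Both pairs overlapped, with intervals of -1.22 to 1.01 and -1.27 to 1.18. Col5a2 had 20 and 3 counts in IP, against 13 and 0 counts in input, and differed more between library numbers than between groups. The remaining fibrillar symbols, Col2a1 and Col5a3, had at most 6 counts in any library and did not meet the rule.

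Markers of fibroblasts, which make type I and type III collagen, moved in both directions. Of 14 fibroblast genes tested, 3 were higher (21.4%) and 2 lower (14.3%), with a median of -0.0054. Over all genes tested these shares were 23.4% and 22.4%. Dcn, Lum, Bgn and Lamb3 also stand in lists of matrix partners, Pdgfra and Vtn in lists of other cell markers. The list of 15 summed to 629 and 661 CPM in IP, against 968 and 875 CPM in input, of which Ptgds, a prostaglandin synthase of the meninges, was the largest part (log2 fold change -0.75, SE 0.09, edgeR adjusted p = 2.41e-06). Without Ptgds the sums were 197 and 211 CPM in IP, against 174 and 187 CPM in input. Igf2, a growth factor of meninges and choroid plexus, fell too, by 1.35. Dcn, the fibril-binding proteoglycan decorin, rose by 2.96, and so did Fbln1, a fibulin, by 1.35, and Aldh1a2, a retinoic acid enzyme, by 0.75. Dpep1 was at 0 counts in every library. The part of these markers in the values of the fibrillar collagens was not tested.

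The type IV collagens of the basement membrane did not move as a group, and their leading chain rose. Of 4 tested, 1 rose (25%) and 0 fell, beside 23.4% and 22.4% of all genes tested. Col4a2 had 9.37 and 9.20 CPM in IP, against 5.32 and 7.02 CPM in input. The IP values were the higher ones without overlap, by 1.5-fold (log2 fold change 0.59, SE 0.20, edgeR adjusted p = 0.0234). This was the only collagen that rose, and the call depended on the setting. It was lost without input 2 (adjusted p = 0.213), with library sizes alone (adjusted p = 0.190), and with offsets for GC content and length (adjusted p = 0.109).

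Col4a1, the chain that joins Col4a2 in vessel basement membranes, had 3.74 and 2.87 CPM in IP, against 4.66 and 4.18 CPM in input. Its IP libraries were both lower, by 0.42 at the log2 scale in the fit, and this missed the threshold (SE 0.27, edgeR adjusted p = 0.213). With library sizes alone Col4a1 did pass, as lower (edgeR adjusted p = 0.0435). The genes lie head to head on chromosome 8 of GRCm38, Col4a1 (ENSMUSG00000031502.11) on the minus strand from 11198423 to 11312826 and Col4a2 (ENSMUSG00000031503.13) on the plus strand from 11312805 to 11449287. Their annotated first exons overlap by 22 bases, 0.29% of the exon bases of Col4a1 and 0.33% of those of Col4a2, so few reads could be shared there.

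The count ratio of these chains was higher in both IP libraries than in both input libraries. The count of Col4a2 over that of Col4a1 was 2.51 and 3.21 in IP, against 1.14 and 1.68 in input. The groups did not overlap, and an exact two-sided permutation test over the 4 libraries gave p = 0.333, the smallest value this design allows. Of 8 such ratios of collagen pairs given this exact test, 6 reached it (0.444 after Benjamini-Hochberg adjustment) and 2, Col1a1 to Col1a2 and Col9a2 to Col9a3, overlapped between groups (p = 1). The Col4a1 and Col4a2 trimer is known to hold more Col4a1 than Col4a2, but that is a ratio of proteins, which RNA counts do not measure. Per kilobase of exon the RNA levels were 0.442 CPM for Col4a1 and 1.40 CPM for Col4a2 in IP, and 0.592 and 0.933 CPM in input. These lengths join all annotated exons, whichever transcript is made.

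The other type IV chains were rare. Col4a3 had 21 and 17 counts in IP and 17 and 12 in input, with a log2 fold change of 0.53 and an interval from -0.94 to 2.0, and 5.65% of its exon bases overlap a noncoding gene on the other strand. Col4a5 had 8 and 20 counts in IP and 21 and 20 in input, with an interval from -1.93 to 1.05. Col4a4 had 2 and 0 counts in IP against 10 and 17 in input and was too low to be tested, although it met the rule through input. A low ratio was built into that entry. At equal depth the Col4a4 ratio was 0.0809, with an exact counting interval from 0.00932 to 0.322 that covers counting error only. Col4a6, with 5 and 2 counts in IP and 8 and 21 in input, missed the rule.

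The multiplexins, collagens of basement membrane zones, are represented by Col15a1 and Col18a1. Col15a1 had 13 and 3 counts in IP, against 91 and 53 in input, and 0.342 and 0.0694 CPM against 2.0 and 1.22 CPM. It was 7.92-fold lower in IP (log2 fold change -2.99, SE 0.68, edgeR adjusted p = 0.00139). It alone among the members also passed a test against a 2-fold change (adjusted p = 0.0294). The value was -4.47 without IP 2 and -2.22 without IP 4, and the call held under each of the 11 alternative fits. Col18a1, the source of endostatin, had 0.526 and 0.208 CPM in IP and 0.374 and 0.693 CPM in input, and its groups overlapped (log2 fold change -0.55, 95% interval -2.05 to 0.96).

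Endothelial and mural cells make much of the type IV collagen of brain vessels. Of 15 endothelial markers, 2 were higher (13.3%) and 1 lower (6.67%), where all genes tested gave 23.4% and 22.4%. Their median was -0.22, and their sum was 76.3 and 71.6 CPM in IP, against 67.1 and 51.1 CPM in input. Without Slc2a1 the sums overlapped, at 19.8 and 17.7 CPM in IP, against 24.4 and 16.8 CPM in input. Slc2a1, the glucose transporter of brain endothelium, which other brain cells also express, rose by 0.52, a call lost with library sizes alone (edgeR adjusted p = 0.0842). Egfl7 and Abcb1a were the other genes called, at 0.70 and -1.38. Of 14 mural cell markers, 2 were higher and 2 lower (14.3% each, median -0.43). Their sums were 72.5 and 68.0 CPM in IP, against 61.7 and 51.1 CPM in input. Without Cspg4 these overlapped too, at 56.6 and 45.4 CPM in IP, against 56.3 and 47.1 CPM in input. Cspg4, a proteoglycan of pericytes and oligodendrocyte precursors, rose by 2.03, Myh11, a smooth muscle myosin, had a log2 fold change of 1.39, and Kcnj8 and Higd1b were lower, at -2.08 and -2.02. No endothelial or mural marker was at 0 in either IP library. Their part in the values of Col4a1, Col4a2 and Col15a1 was not tested.

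The transmembrane collagens held some of the most abundant members, and 1 of 2 (50%) fell in IP, beside 22.4% of all genes tested. Col25a1, a collagen of neurons whose shed form is found in amyloid plaques, had 18.3 and 18.8 CPM in IP, against 28.3 and 29.6 CPM in input. The groups were far apart compared with the replicates, and it was 1.56-fold lower in IP (log2 fold change -0.64, SE 0.13, edgeR adjusted p = 0.000566), a call that held under each of the 11 alternative fits. Col23a1, another collagen of this class, had 6.79 and 5.99 CPM in IP, against 5.52 and 5.41 CPM in input. Its IP libraries lay above both input libraries, but the log2 fold change of 0.22 did not pass (SE 0.22, edgeR adjusted p = 0.420, 95% interval -0.23 to 0.68). With library sizes alone its direction turned, to -0.033.

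The count of Col25a1 over that of Col23a1 was 2.70 and 3.13 in IP, against 5.12 and 5.47 in input, again without overlap (exact permutation test, two-sided p = 0.333, the smallest possible). The remaining transmembrane symbols were rare, and neither met the rule: Col13a1 had 6 and 8 counts in IP and 5 and 9 in input, and Col17a1 had 3 and 11 counts in IP and 9 and 5 in input.

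Col25a1 (ENSMUSG00000058897.17) lies on chromosome 3 of GRCm38 from 130131501 to 130599877, and Col23a1 (ENSMUSG00000063564.13) on chromosome 11 from 51289920 to 51583918, both on the plus strand. The 250 bases before the RefSeq start of each are shown because 1 gene of this class fell and the other did not pass. Both windows are free of annotated exons, and that of Col25a1 lies in an intron of longer annotated transcripts. Sequences are from RefSeq on GRCm38.p6, 5′ to 3′, at chr3:130180595-130180844 and chr11:51289670-51289919 on the plus strand, and capitals mark matches to CCAAT or to TATAAA or to GGGCGG on either strand.
Col25a1: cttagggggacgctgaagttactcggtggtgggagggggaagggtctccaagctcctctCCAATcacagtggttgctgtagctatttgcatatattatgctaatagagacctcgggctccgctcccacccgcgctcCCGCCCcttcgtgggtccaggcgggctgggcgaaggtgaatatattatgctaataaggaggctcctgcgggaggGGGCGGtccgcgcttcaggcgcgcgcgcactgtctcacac
Col23a1: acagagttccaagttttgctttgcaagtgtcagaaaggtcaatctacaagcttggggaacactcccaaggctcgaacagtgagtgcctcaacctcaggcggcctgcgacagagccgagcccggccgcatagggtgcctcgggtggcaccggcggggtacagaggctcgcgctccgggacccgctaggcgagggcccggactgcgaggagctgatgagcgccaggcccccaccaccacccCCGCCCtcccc
The Col25a1 window held 1 match to CCAAT and 2 to GGGCGG, and the Col23a1 window 1 match to GGGCGG. Neither held TATAAA. Of 29 windows of this length at 26 collagen members, 34.5% held CCAAT, 6.90% TATAAA and 58.6% GGGCGG. Of all 32851 such windows in the table, 33.8%, 12.4% and 32.7% held those motifs in that order.

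The fibril-associated collagens held the other abundant members that fell. In this class 2 of 9 members tested fell (22.2%) and 0 rose. The share that fell lay near the 22.4% of all genes tested, of which 23.4% rose. Col19a1, which is made by neurons of the mouse forebrain including interneurons, had 7.05 and 7.75 CPM in IP, against 14.8 and 16.9 CPM in input. It was 2.14-fold lower, with no overlap between groups (log2 fold change -1.10, SE 0.17, edgeR adjusted p = 3.74e-05). Col12a1, a collagen of dense connective tissue, had 3.45 and 2.89 CPM in IP, against 8.12 and 7.48 CPM in input, a 2.46-fold difference (-1.30, SE 0.23, adjusted p = 0.000145). Both calls held under each of the 11 alternative fits. Col19a1 (ENSMUSG00000026141.13) spans 24261890 to 24587472 on chromosome 1 and Col12a1 (ENSMUSG00000032332.17) spans 79598991 to 79718831 on chromosome 9, both on the minus strand of GRCm38.

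GABAergic neuron markers, which include markers of the interneurons that make Col19a1, moved in both directions. Of 10 tested, 1 was higher (10%) and 4 were lower (40%), beside 23.4% and 22.4% of all genes tested. Their median was -0.04, and their sum was 939 and 1146 CPM in IP, against 1039 and 1090 CPM in input. Lhx6, an interneuron transcription factor, fell by 1.18 and Pvalb, the parvalbumin gene, by 0.52. Dlx1 and Dlx5, transcription factors of the same lineage, had log2 fold changes of -0.92 and -0.96. Their part in the Col19a1 value was not tested.

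The other 7 fibril-associated members did not pass. Col22a1, a collagen of tissue junctions, came nearest on the higher side, with 2.42 and 2.08 CPM in IP, against 1.54 and 0.693 CPM in input (log2 fold change 1.01, SE 0.44, edgeR adjusted p = 0.0683). It did pass without input 2, with the replicate number as a block, and without a filter on low counts. Col20a1 and Col9a2 also had both IP libraries above input, at 0.41 and 0.58 on the log2 scale. Col9a1 had 3 and 8 counts in IP, against 24 and 21 in input, a ratio at equal depth of 0.267 with an exact counting interval from 0.125 to 0.524 (edgeR adjusted p = 0.0615). It too had met the count rule only through input, so a low ratio was built into its entry. Col9a1 did pass, as lower, with library sizes alone and with GC and length offsets (edgeR adjusted p = 0.0324 and 0.0479). For its partners in type IX collagen the log2 fold change was 0.58 (Col9a2) and 0.04 (Col9a3), with intervals from -0.31 to 1.47 and -0.82 to 0.90. For Col9a3, 6.07% of exon bases overlap a gene on the other strand. Col14a1 and Col16a1 had log2 fold changes of -0.81 and -0.56, from 7 to 23 counts per library.

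Among the beaded-filament collagens, Col6a1 fell and its partner chains did not pass. That was 1 of 5 members tested (20%), near the 22.4% of all genes tested that fell. Col6a1 had 2.32 and 2.54 CPM in IP, against 4.31 and 4.16 CPM in input, a 1.74-fold difference without overlap (log2 fold change -0.80, SE 0.28, edgeR adjusted p = 0.0267). The size held when any library was left out (-0.86 to -0.72), but the call was lost without IP 2, input 2 or input 4 (adjusted p = 0.0743, 0.116 and 0.0868). Col6a2 had 4.03 and 4.37 CPM in IP, against 3.56 and 3.16 CPM in input (0.32, SE 0.27, adjusted p = 0.347), and Col6a3 0.737 and 0.879 CPM against 0.946 and 0.739 CPM.

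The count of Col6a2 over that of Col6a1 was 1.74 and 1.72 in IP, against 0.827 and 0.761 in input. These groups were well apart and the replicates close, but the exact permutation test could not go below p = 0.333. The genes are neighbours on the minus strand of chromosome 10 of GRCm38, Col6a2 from 76595762 to 76623630 and Col6a1 from 76708792 to 76726168. Col6a6 had 0.816 and 0.763 CPM in IP, against 0.264 and 0.416 CPM in input (1.21, SE 0.64, edgeR adjusted p = 0.135), and Col6a4 had 0.895 and 1.18 CPM, against 1.65 and 1.36 CPM. Neither overlapped between groups.

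**Figure D3:**
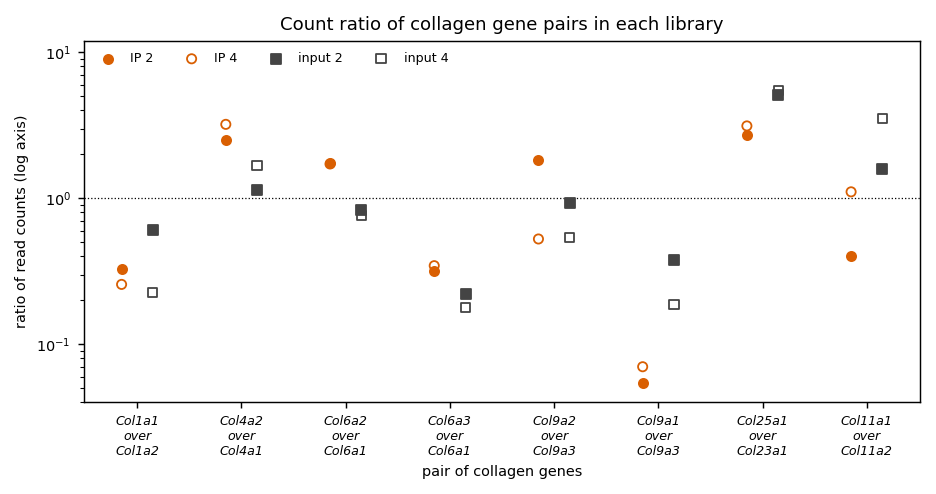
Ratio of read counts of collagen gene pairs in each library (log axis), with IP left of input and libraries 2 and 4 filled and open. The ratios of Col4a2 to Col4a1 and of Col6a2 to Col6a1 were higher in both IP libraries than in both input libraries, and that of Col25a1 to Col23a1 was lower.

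Of the remaining classes, Col8a1, a short-chain collagen of vessels and cornea, had 1.21 and 2.27 CPM in IP and 2.38 and 2.15 CPM in input. Col26a1 had 2.39 and 1.02 CPM in IP and 1.94 and 4.25 CPM in input. Both overlapped between groups, and neither passed (edgeR adjusted p = 0.458 and 0.109). Among the fits that kept every library, Col26a1 did pass, as lower, with library sizes alone and without a filter on low counts (edgeR adjusted p = 0.0310 and 0.0432). Its log2 fold change ranged from -1.58 (without IP 2) to -0.18 (without input 4) when 1 library was left out. The other symbols that missed the rule, Col6a5, Col7a1, Col8a2, Col10a1 and Col28a1, had 10 or more counts in at most 1 library. Closest to the rule stood Col10a1 and Col17a1, whose second highest count was 9, and Col4a4 just inside it, whose second highest was 10.

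Side by side, the classes named by matrix role had different medians. The median log2 fold change was -1.09 over the 9 fibrillar members, 0.05 over the 4 type IV members tested and -0.21 over the 2 transmembrane members, beside -0.04 over all genes. Summed over its members, the fibrillar class had 8.58 and 6.59 CPM in IP, against 15.3 and 14.7 CPM in input. The type IV class summed to 13.9 and 12.9 CPM in IP, against 11.0 and 12.3 CPM in input, and the transmembrane class to 25.1 and 24.7 CPM, against 33.8 and 35.0 CPM. The groups did not overlap for any of these sums. The differences between classes were not tested. The fibrillar median was -0.60 without IP 4, and -0.60 also without Col24a1, and with the multiplexins added the type IV median was -0.43. Col4a4, which like Col24a1 met the rule only through input, was too low to be tested and is not in the type IV median. Without a filter on low counts the type IV median was -0.41.

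Genes that modify and fold collagen chains were called in both directions. In this list 5 of 19 fell (26.3%) and 2 rose (10.5%), at a median of -0.30. The share that fell lay near the 22.4% of all genes, of which 23.4% rose. P4ha2 had the lowest value of the list, at -1.24 (SE 0.24, edgeR adjusted p = 0.000391), with a mean of 4.71 CPM. P4ha1 was lower too, at -0.42, and Plod3 was higher, at 0.56. Ctage5 and Mia3, cargo receptors that load procollagen at exit sites of the endoplasmic reticulum, fell by 1.19 (SE 0.12) and 0.69 (SE 0.11). Ppib, a prolyl isomerase, fell by 0.71, a call lost without IP 4 (edgeR adjusted p = 0.0581). Plod1, a lysyl hydroxylase, rose by 0.68, a call lost without IP 4 or input 4 and with library sizes alone (edgeR adjusted p = 0.124, 0.149 and 0.119). Serpinh1, the collagen chaperone, had 1.66 and 2.38 CPM in IP, against 0.946 and 1.5 CPM in input, and did not pass (edgeR adjusted p = 0.173). Serpinh1, P4ha1, P4ha2 and Plod3 were named after their values were seen.

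Of 13 tested genes of propeptide cleavage, shedding and crosslinking, 1 rose (7.69%) and 2 fell (15.4%), at a median of -0.09. Both shares were below those of all genes tested (23.4% and 22.4%). Adamts2, which removes the amino propeptide of fibrillar procollagens, was 1.84-fold higher, with 10.4 and 11.0 CPM in IP, against 5.17 and 6.49 CPM in input. Bmp1, which removes the carboxyl propeptide, fell by 1.11 (SE 0.22, edgeR adjusted p = 0.000442). The other gene that fell was the crosslinking enzyme Loxl2, at 5 and 4 counts in IP, against 13 and 35 in input.

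Among 9 collagen receptors tested, 3 rose (33.3%) and 1 fell (11.1%), at a median of 0.08, beside 23.4% and 22.4% of all genes. Adgrg1, a receptor for type III collagen in the developing cortex, had 29.2 and 30.6 CPM in IP, against 19.95 and 16.4 CPM in input (log2 fold change 0.72, SE 0.14, edgeR adjusted p = 0.000327). Ddr1, a collagen-binding receptor kinase of myelinating cells, rose by 0.61 and the integrin subunit Itgb1 by 0.55. With library sizes alone the Ddr1 and Itgb1 calls were lost (adjusted p = 0.0722 and 0.0703), and that of Ddr1 also without input 4 (0.0612) and with GC and length offsets (0.0646). The receptor that fell was Lair1, an inhibitory receptor of immune cells, with 3.03 and 1.90 CPM in IP, against 6.86 and 6.19 CPM in input.

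The list of 16 laminin, nidogen and proteoglycan genes, partners of type IV collagen in the basement membrane, held 4 that rose and 1 that fell, at a median of -0.15. The share that rose, 25%, lay near the 23.4% of all genes. Lama3 had 21.6 and 16.1 CPM in IP, against 4.86 and 5.87 CPM in input, a 3.51-fold difference (log2 fold change 1.81, SE 0.19, edgeR adjusted p = 3.54e-07). Lamb2 rose as well, at 1.43, and Sparc, a collagen-binding protein, by 0.29, whereas Lama4, a laminin chain of vessels, had a log2 fold change of -0.89. The Sparc call was lost with library sizes alone (adjusted p = 0.820) and under 5 other alternatives, and the Lama4 call without input 2 (adjusted p = 0.0917).

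Among 7 fibril-binding small proteoglycans tested, 1 rose and 1 fell (14.3% each, median -0.19), beside 23.4% and 22.4% of all genes. Dcn had 86.7 and 79.4 CPM in IP, against 11.0 and 10.4 CPM in input, and Prelp fell by 0.36 (SE 0.14, edgeR adjusted p = 0.0449; 0.0602 with DESeq2, and also lost without any 1 library). Bgn, Fmod and Lum did not pass. Of 8 collagen-cleaving proteases and inhibitors tested, 1 rose (12.5%) and 2 fell (25%), at a median of -0.05. Timp2, an inhibitor of matrix metalloproteinases, rose by 0.70, and the inhibitor gene Timp4 and the membrane protease gene Mmp16 were lower, at -1.0 and -0.32. The Mmp16 call was lost without IP 2 or input 2 and with GC and length offsets (edgeR adjusted p = 0.164, 0.254 and 0.200). Mmp8 and Mmp13, the classical collagenases of the list, had 0 counts in each library, which allows up to 0.0789 CPM at a floor of 3 counts.

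**Figure D4:**
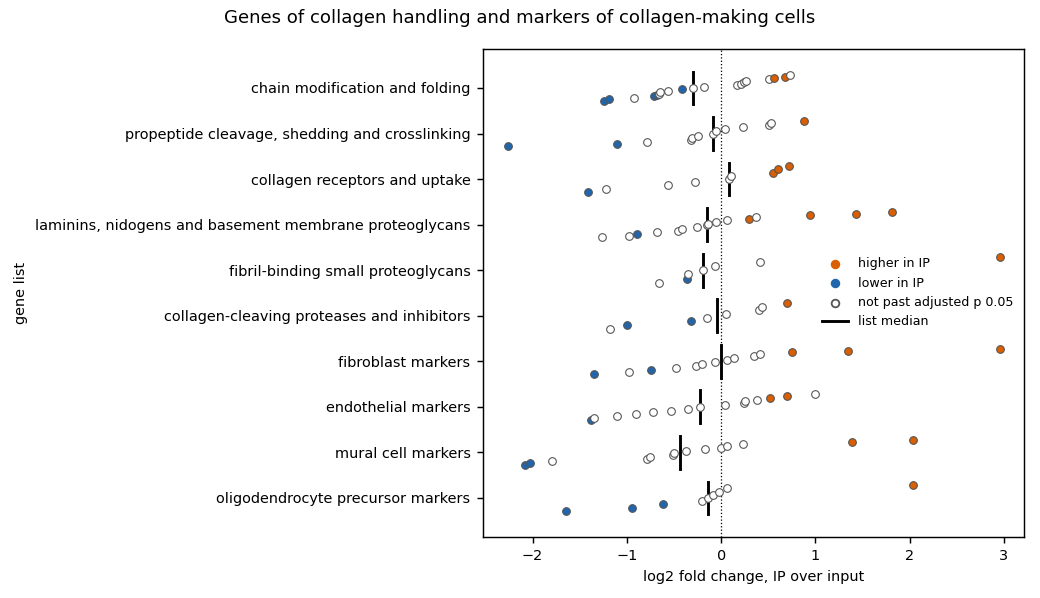
Log2 fold change (IP over input) of each tested gene in 6 lists of collagen handling and 4 lists of cell markers. Orange points were higher in IP, blue points lower and open points did not pass an adjusted p of 0.05, and bars mark list medians; Dcn, the point at 2.96, stands in both the proteoglycan and the fibroblast list.

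Of all genes tested, 23.4% rose and 22.4% fell, and the shares of the lists below stand beside these. Oligodendrocyte precursor markers held 1 gene that rose (11.1%) and 3 that fell (33.3%) of 9, at a median of -0.14. Their sums were 272 and 309 CPM in IP, against 365 and 367 CPM in input. Cspg4 was the gene that rose, and Vcan, Ptprz1 and Olig2 were lower, at -1.65, -0.94 and -0.62. Astrocyte markers held 3 that rose (33.3%) and 4 that fell (44.4%) of 9, at a median of -0.21. Their sums were 2085 and 2153 CPM in IP, against 2971 and 3066 CPM in input. Slc1a2 alone held most of each sum, with 1719 and 1738 CPM in IP, against 2584 and 2674 CPM in input. Acsbg1 rose by 1.09, Gfap by 0.61 and Aldh1l1 by 0.68 (the last call was lost without IP 4, edgeR adjusted p = 0.115), and Slc1a2, the main glutamate transporter, was lower, at -0.61. Of 9 glutamatergic markers 7 rose (77.8%) and 1 fell (11.1%), at a median of 0.38. Neurod6 was highest at 1.42, then Sv2b at 0.67 and Camk2a at 0.48, and Nrn1 was lower, at -0.52. The part of these markers in the collagen values was not tested.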

How the data were processed

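The deposited values were raw read counts per gene, 1 table per library, not normalised. STAR 2.0.0e, HTSeq and mm10 are named in the submitters' processing notes, and neither annotation nor strand setting is given in the sources used here. Lines that name no gene held 45.9% to 52.0% of records per library and were left out. Without a known strand setting, exon overlaps make 11 members uncertain. The largest single overlap covers 6.07% of the exon bases of Col9a3, 5.65% of those of Col4a3 and at most 1.90% in any other member. Some members hold more than 1 overlap, such as Col6a4 at 1.90% and 1.49%.

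The test was made in edgeR 4.0.16 with R 4.3.3 (TMM, filterByExpr with a minimum count of 10 and total of 15, quasi-likelihood, IP against input, no block), over all 16600 genes, two-sided, at a Benjamini-Hochberg adjusted p of 0.05. Each SE was derived as the absolute log2 fold change divided by the square root of the quasi-likelihood F statistic. The intervals of fold changes apply a t distribution to it, with the residual and prior degrees of freedom of the fit. The method was tested on simulated data. A floor of 3 counts was 0.0660 to 0.0789 CPM; floors and counting intervals (exact, 95%) cover counting error only. Replicates differed beyond sampling noise (chi-square per degree of freedom 21.2 for IP and 14.5 for input). Coordinates and lengths are from GENCODE vM21 on GRCm38, and lengths are unions of all annotated exons.

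Members, classes and lists were chosen with earlier results of these data known. Named were all members of the fibrillar, type IV, multiplexin and transmembrane classes, other called members, and up to 4 called genes per list at a mean of 5 CPM or more with the largest fold change, plus Cbln1. Members outside that rule, Fbln1, Myh11, Slc17a7, Egfl7, Abcb1a, Kcnj8, Higd1b, Lamb2, Loxl2, Lair1, Serpinh1 and genes given only as not passing or at 0 were named after their values were seen. So were P4ha1, P4ha2 and Plod3. Alternatives were DESeq2 1.42.0, DESeq2 size factors, library sizes alone, other filters, a replicate block, a test against a 2-fold change, each library left out and, added later, GC and length offsets (mgcv 1.9.3). Figures were drawn with matplotlib 3.10.9. A gene of the laminin list is not reported here.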

Additional observations from a re-analysis of the deposited data

How the results depend on the processing

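Of the 11 collagens called, 5 kept their call under each of 11 alternative fits, the test against a 2-fold change apart (Col1a2, Col12a1, Col15a1, Col19a1 and Col25a1), and of 22 not called, 18 were called under none. With library sizes alone, which moved the median of the same genes by -0.26, 2153 genes were higher in IP and 5902 lower, 0 collagens were higher, and the type IV and transmembrane medians were -0.20 and -0.47. Against a 2-fold change, 172 genes were higher and 675 lower, with 0 and 1 collagens. Higher collagens numbered 2 without a filter on low counts, where the type IV median was -0.41, and 0 with GC and length offsets, where it was -0.060. At 50 counts in 2 libraries, which tests fewer members, the fibrillar and transmembrane medians were -1.58 and -0.27. With the multiplexins the type IV median was -0.43. Without members that met the rule only through input, a choice added later, 9 collagens were lower and 1 higher, and the fibrillar median was -0.60. Leaving out each library gave 3323 to 3720 higher and 2670 to 3421 lower genes, 1 higher and 7 to 10 lower collagens, and medians of -1.27 to -0.60 (fibrillar), -0.34 to 0.019 (type IV) and -0.23 to -0.16 (transmembrane). Directions turned for 8 members, none of them called: Col23a1 with library sizes alone (-0.033), Col5a2 and Col4a5 without IP 2 (-1.01 and 0.019), Col11a2 without IP 4 or input 2 (0.10 and 0.26), Col27a1 without input 4 (0.051), Col6a3 without IP 2 or input 2 (0.077 and 0.13), Col8a1 without IP 2 (0.020), and Col9a3 in 5 alternatives (-0.45 to -0.021). With each library left out, Col5a2 ranged from -1.01 to 6.63 (6.63 fitted against 0 counts in input 4, and no bound), Col11a2 from -0.28 to 0.26 and Col4a5 from -1.11 to 0.019. Over the single genes tested under each alternative, 595 values kept direction and side of the threshold and 39 lost the call. The cause of these changes was not tested.

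Same-numbered libraries deviated together only weakly (correlation 0.05), and the labels do not say that the numbers pair samples. With the replicate number as a block, 2 collagens were higher and 10 lower, the higher ones being Col4a2 and Col22a1. Depth limits the rare chains: for Col27a1, with 0.860 CPM in IP on average, against 0.926 CPM in input, the 95% interval still reached from -1.22 to 1.01.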

Other observations

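Some collagens differed between library numbers in the same direction in both groups. Library 4 was at least 1.5 times library 2 in both groups for 3 of the 33 members tested: Col9a3 (1.82 times in IP and 1.84 times in input), Col11a1 (2.27 and 1.53 times) and Col14a1 (1.51 and 1.86 times). Library 2 exceeded library 4 by that much in both groups for another 3, Col1a1, Col5a2 and Col15a1, where the ratio of library 4 to library 2 was 0.586 in IP and 0.462 in input for Col1a1 and 0.203 in IP and 0.612 in input for Col15a1. For Col5a2 that ratio was 0.132 in IP, and input 4 had 0 counts. Some of these ratios rest on few counts, with 7 and 12 in IP for Col14a1 and 13 and 3 in IP for Col15a1. No share of all genes is set beside these numbers of members. Opposite differences of that size were seen for 3 members, Col3a1, Col18a1 and Col26a1, so the numbers do not order the collagens as a whole.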
